A study of Mus musculus with 9 samples.

Results

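The genes described here are the G1 cyclins, the kinases they activate and the E2F transcription factors that act after them. They are the D cyclins Ccnd1, Ccnd2 and Ccnd3, the E cyclins Ccne1 and Ccne2, the kinases Cdk4, Cdk6 and Cdk2, and the activator E2Fs E2f1 and E2f2. The rule selects them by gene symbol and uses no measured value, but the members were chosen with earlier results of these data known. Their counts beside the shares over all genes are therefore only descriptions. All 10 were found, each with 1 probe set that carries a single symbol, among 19938 genes tested.

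The cells were immortalized mouse embryonic fibroblasts (MEFs) of ICR background, grown at 37 °C in medium with 10% fetal bovine serum. Every group, the control included, was infected for 2 h with an adenovirus at 1e8 pfu per ml and then cultured for 70 h. A short hairpin RNA (shRNA) was delivered by the virus: a control hairpin, named scr in the titles, or one that targets HSF1 or RPA1. Each group has 3 Affymetrix Mouse Gene 1.0 ST arrays. The question stated for the design is whether a complex of HSF1, the main heat shock transcription factor, and RPA, the protein that coats single-stranded DNA in replication and repair, acts on gene expression. The labels name no second shRNA against either gene, and they do not say whether arrays of a group came from separate cultures, so the p-values speak only of how these arrays spread, which may be technical.

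In a growing cell, mitogens raise the D cyclins, which bind Cdk4 or Cdk6 and start the phosphorylation of the retinoblastoma protein. E2F factors are then released and switch on genes of DNA synthesis, and also Ccne1 and Ccne2. Cyclin E with Cdk2 completes the phosphorylation and carries the cell into S phase. CDK inhibitors hold these kinases back, and in fibroblasts in culture the pathway sets the choice between quiescence and division.

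All values are log2 signals, and differences are in log2 units ± SE (limma's standard error; n = 3 in each group). A gene was called at a limma adjusted p under 0.05, two-sided, with the Benjamini-Hochberg adjustment over all 19938 genes. The 2 knockdowns are compared with the same 3 control arrays. In a bulk sample, fewer cells of a type and less RNA per cell cannot be told apart.

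The targeted gene was low where the labels place its shRNA. Rpa1 (probe set 10388409) was at 11.40, 11.42 and 11.41 on the control arrays and at 9.42, 9.34 and 9.40 on the RPA1 shRNA arrays, so that it fell by 2.02 ± 0.04 (limma adjusted p = 3.5e-08, 4.05-fold). The HSF1 shRNA arrays, at 11.35, 11.33 and 11.30, were 0.08 below the control mean, which did not pass (limma adjusted p = 0.27). Hsf1 itself was not analysed here, so the HSF1 knockdown has no such check. Array medians lay between 7.72 and 7.81, and no array was left out. RPA1 shRNA array 3 stood apart from its group. Over the 408 genes at least 2-fold from control on the other arrays of that group, its difference was 0.685 times theirs at the median. The same ratio was 1.065 and 1.038 for RPA1 arrays 1 and 2, over their own sets of 207 and 208 genes, chosen partly on array 3. Rpa1 was nevertheless as low on array 3 as on arrays 1 and 2. For several genes where this array stood apart, values are therefore given with and without it, but not for every gene or comparison.

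Under HSF1 shRNA, 3 of the 10 genes rose against the control and 0 fell, while 9.89% of all genes tested were called higher and 6.21% lower. Those that rose were Ccnd1, Ccne1 and Ccne2. Under RPA1 shRNA, 6 of 10 rose and 0 fell, with 15.4% of all genes called higher and 14.7% lower. They were Ccnd1, Ccnd2, Ccne1, Ccne2, E2f1 and E2f2. Between the knockdowns, Ccnd2, Ccne1 and E2f1 were higher under RPA1 shRNA than under HSF1 shRNA and 0 members were lower, with 9.71% of all genes called higher and 14.7% lower. The median difference of the 10 genes was 0.12, 0.36 and 0.15 in these 3 comparisons, against 0.04, 0.02 and −0.02 over all genes. The 3 kinases were called in 0 of the 3 comparisons.

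**Figure D1:**
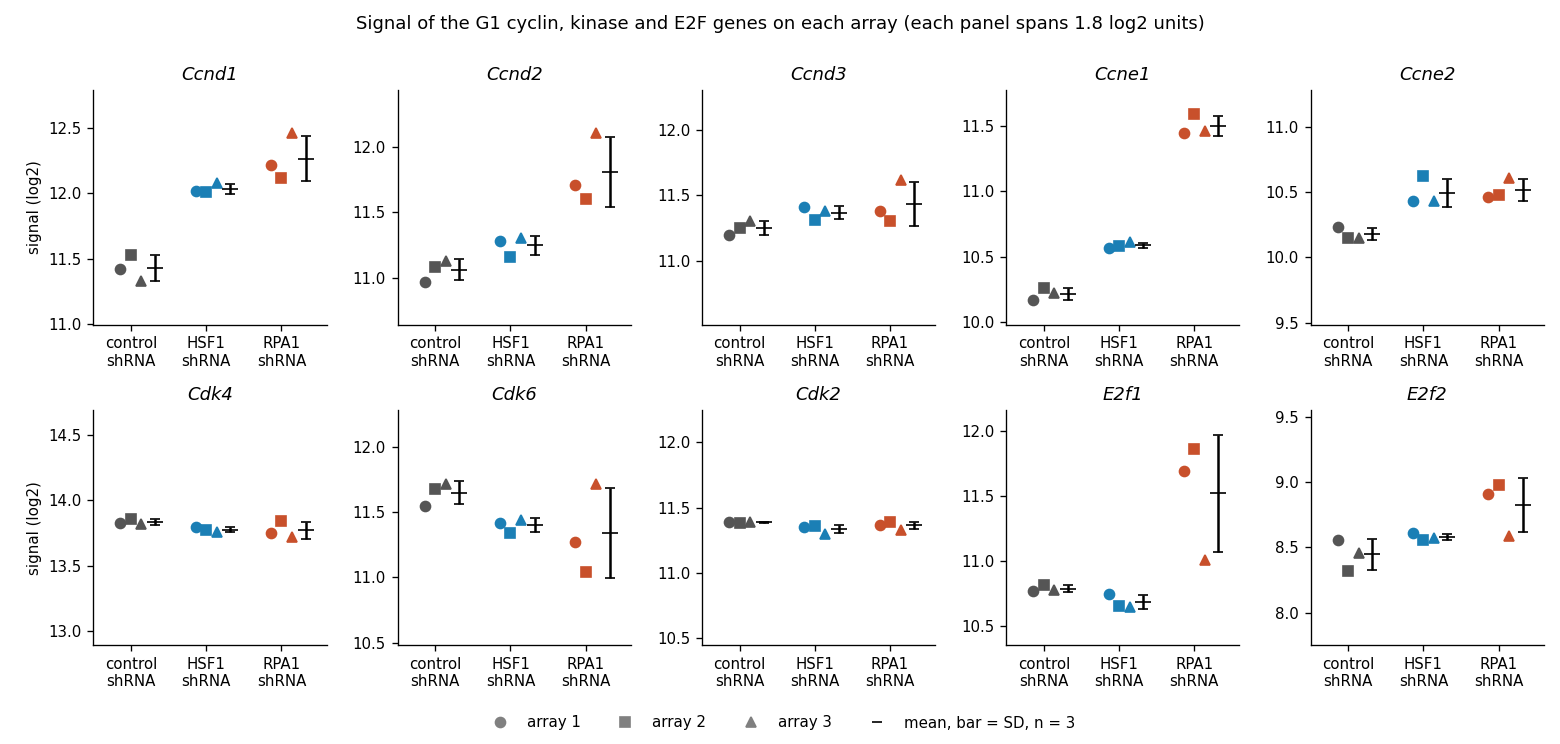
Log2 signal of each of the 10 genes on the 9 arrays, 1 panel per gene, with array number as the marker shape and the mean ± SD of each group beside the points. Each panel spans the same width on the y axis. Ccne1 separates the 3 groups without overlap, the Cdk4 and Cdk2 points lie close together, and the RPA1 shRNA array 3 points of E2f1 and Cdk6 lie apart from the other RPA1 arrays.

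Ccnd1 encodes cyclin D1, the D cyclin most closely tied to mitogen signals in fibroblasts. Its signal (probe set 10569646) was 11.42, 11.53 and 11.33 on the control arrays, 12.02, 12.01 and 12.08 with HSF1 shRNA, and 12.22, 12.12 and 12.46 with RPA1 shRNA. The order was control, HSF1 shRNA, RPA1 shRNA, with no overlap between any pair of groups. The lowest RPA1 array, at 12.12, lay close to the highest HSF1 array, at 12.08. RPA1 array 3 was the highest, at 1.03 above the control mean, against 0.75 for RPA1 arrays 1 and 2. Ccnd1 rose by 0.61 ± 0.09 under HSF1 shRNA (limma adjusted p = 0.0018, 1.52-fold) and by 0.84 ± 0.09 under RPA1 shRNA (limma adjusted p = 9.9e-05, 1.79-fold). The step between the knockdowns, 0.23 (95% interval 0.04 to 0.43), did not pass over all genes (limma adjusted p = 0.078). That step did pass in 6 of 19 alternative settings, where its adjusted p ranged from 0.032 to 0.19.

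Ccnd2 encodes cyclin D2. On probe set 10548105 it was at 10.97, 11.08 and 11.13 in control, 11.28, 11.16 and 11.30 with HSF1 shRNA, and 11.71, 11.60 and 12.11 with RPA1 shRNA. RPA1 arrays were above all others, and array 3 was the highest of them. The difference from control was 0.75 ± 0.11 under RPA1 shRNA (limma adjusted p = 0.00099, 1.68-fold) and 0.18 under HSF1 shRNA (95% interval −0.07 to 0.44, limma adjusted p = 0.34). Tested directly, Ccnd2 was higher under RPA1 shRNA than under HSF1 shRNA by 0.56 ± 0.11 (limma adjusted p = 0.0066). Without RPA1 array 3 its difference from control was 0.60 and remained called (limma adjusted p = 0.00014).

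Ccnd3, the third D cyclin, moved least of the 3. On probe set 10445688 it was at 11.20, 11.25 and 11.30 in control, 11.41, 11.31 and 11.38 with HSF1 shRNA, and 11.38, 11.30 and 11.62 with RPA1 shRNA. The knockdown groups overlap each other, and their lowest arrays lie close to the highest control array. Its differences from control were 0.11 (95% interval −0.06 to 0.29) under HSF1 shRNA and 0.18 (0.01 to 0.36) under RPA1 shRNA, with limma adjusted p = 0.39 and 0.12. Under RPA1 shRNA, Ccnd3 was called only when RPA1 array 2 was left out (0.25, limma adjusted p = 0.045, with 0.045 to 0.26 over the 19 settings). Between the knockdowns the difference was 0.07 (−0.11 to 0.24).

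Ccne1 encodes cyclin E1, the cyclin that activates Cdk2 at entry into S phase, and showed the largest difference of the 10 genes under RPA1 shRNA. The signal of probe set 10562563 was 10.17, 10.26 and 10.22 in control, 10.57, 10.58 and 10.61 with HSF1 shRNA, and 11.45, 11.59 and 11.46 with RPA1 shRNA. The 3 groups were fully separated, and the gap between the knockdowns was wider than the gap from control to HSF1 shRNA. Ccne1 rose by 0.37 ± 0.05 under HSF1 shRNA (limma adjusted p = 0.0019, 1.29-fold) and by 1.28 ± 0.05 under RPA1 shRNA (limma adjusted p = 1.5e-06, 2.43-fold). Directly compared, it was 0.91 ± 0.05 higher under RPA1 shRNA (limma adjusted p = 3.5e-05, 1.88-fold). RPA1 array 3 did not stand apart for Ccne1: its difference from the control mean was 1.24, against 1.30 for arrays 1 and 2. All 3 Ccne1 calls were made in each of the 19 alternative settings.

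Ccne2, the other E cyclin, rose by a like amount in both knockdowns. Its signal (probe set 10503264) was 10.23, 10.15 and 10.15 in control, 10.43, 10.62 and 10.43 with HSF1 shRNA, and 10.46, 10.48 and 10.61 with RPA1 shRNA. Both knockdown groups lay above control and overlapped each other. Ccne2 rose by 0.32 ± 0.07 under HSF1 shRNA (limma adjusted p = 0.012, 1.24-fold) and by 0.34 ± 0.07 under RPA1 shRNA (limma adjusted p = 0.004, 1.27-fold). The difference between the knockdowns was 0.02, with a 95% interval from −0.13 to 0.18. The HSF1 call was lost without control array 3 (0.30, limma adjusted p = 0.051, with 0.0015 to 0.051 over the 19 settings).

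The sequence just before the start of Ccne1 is shown because this gene changed most and is a textbook E2F target. It is the 250 bases at chr7:38107491-38107740, minus strand, RefSeq assembly GRCm38.p6, written 5′ to 3′ and ending at the base before the start. The full E2F motif searched on both strands (TTTCCCGC, TTTGGCGC, TTTCGCGC or TTTGCCGC) is not in this window of 250 bases before to 50 after the start. The capitals mark matches, on either strand, to the same motif without its first 2 letters (so 6 letters in each of the 4 forms), a shorter search added after the letters had been seen.

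Ccne1: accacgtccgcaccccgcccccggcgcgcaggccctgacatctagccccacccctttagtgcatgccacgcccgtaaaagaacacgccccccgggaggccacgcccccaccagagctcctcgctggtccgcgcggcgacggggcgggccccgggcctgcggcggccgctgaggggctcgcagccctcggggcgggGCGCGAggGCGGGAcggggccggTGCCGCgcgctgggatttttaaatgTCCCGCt

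The Ccne1 stretch holds 4 of these short matches in its last part. At least 1 short match lies in 36.3% of the 32851 promoter windows of the RefSeq table, so the presence of at least 1 is common. How many windows hold 4 or more was not counted. Windows were given for 7 of the 10 genes, 9 windows in all, and 4 of the 9 hold a short match (44.4%). Ccnd1, Ccnd2 and Ccne2 have no entry in that table.

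Cdk4, the partner kinase of the D cyclins, stayed within a narrow range. Its signal (probe set 10366814) was 13.83, 13.86 and 13.82 in control, 13.80, 13.77 and 13.76 with HSF1 shRNA, and 13.75, 13.84 and 13.72 with RPA1 shRNA. The RPA1 and control arrays overlap, and the HSF1 arrays lie just under the control arrays. Its difference from control was −0.06 in both knockdowns, with 95% intervals of −0.17 to 0.05 under HSF1 shRNA and −0.17 to 0.04 under RPA1 shRNA (limma adjusted p = 0.48 and 0.37).

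Cdk2, the partner of cyclin E, was at 11.39, 11.38 and 11.39 in control, 11.35, 11.36 and 11.30 with HSF1 shRNA, and 11.37, 11.39 and 11.33 with RPA1 shRNA (probe set 10373530). The HSF1 arrays lie just below the control arrays, and the RPA1 arrays overlap both other groups. The differences were −0.05 (95% interval −0.15 to 0.04) and −0.03 (−0.12 to 0.07), with limma adjusted p = 0.47 and 0.72. The E cyclins that activate Cdk2 rose in both knockdowns, while no change of the kinase's own transcript was called.

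Cdk6, the second D cyclin partner, is where 1 array decided the result. The arrays read (probe set 10519324) 11.55, 11.68 and 11.72 in control, 11.42, 11.34 and 11.44 with HSF1 shRNA, and 11.27, 11.04 and 11.72 with RPA1 shRNA. RPA1 arrays 1 and 2 were the lowest of all 9, and array 3 equalled the highest control array. Over all arrays the Cdk6 difference under RPA1 shRNA was −0.31 (95% interval −0.63 to 0.01, limma adjusted p = 0.14). Without RPA1 array 3 it was −0.50 ± 0.08 (limma adjusted p = 0.001), with 0.001 to 0.39 over the 19 settings. Under HSF1 shRNA the Cdk6 difference was −0.26 (−0.57 to 0.06, limma adjusted p = 0.28), and without RPA1 array 3, whose spread enters the shared variance, it was −0.26 ± 0.07 (limma adjusted p = 0.03). That adjusted p ranged from 0.019 to 0.49 over the settings. Between the knockdowns the difference was −0.05 (−0.37 to 0.26), or −0.24 without array 3 (limma adjusted p = 0.042, 0.042 to 0.97 over the settings).

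Cdk2 is 1 of the 2 genes with a full E2F motif in a window, and it was called in no comparison, so its stretch is set beside that of Ccne1. It is chr10:128705052-128705301, minus strand, GRCm38.p6, 5′ to 3′. The capitals mark only the full motif, as read on the opposite strand, at positions −140 to −133 from the start. Short matches of the kind marked in Ccne1 are not marked on their own here. This stretch holds 4 of them, as does that of Ccne1, and the full motif contains a short match that is counted among the 4.

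Cdk2: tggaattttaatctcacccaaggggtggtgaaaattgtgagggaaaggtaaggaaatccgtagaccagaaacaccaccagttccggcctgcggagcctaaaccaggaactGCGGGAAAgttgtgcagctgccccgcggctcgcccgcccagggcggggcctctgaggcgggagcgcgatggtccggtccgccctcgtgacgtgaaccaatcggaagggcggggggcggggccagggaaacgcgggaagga

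The full motif lies in 744 of the 32851 windows (2.26%) and in 2 of the 9 member windows. The only window of E2f1 is at a start inside the gene, and so is that of Cdk6. The bases just before the full gene were therefore not searched for E2f1 or Cdk6. E2f2 and Ccnd3 each have a window at the gene's own start and another at a start inside it. A match of letters is a description and says nothing of whether a factor binds there.

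E2f1 encodes the activator E2F most studied at the G1/S transition, and its own gene is a known E2F target. Its signal (probe set 10488785) was 10.77, 10.82 and 10.78 in control, 10.75, 10.66 and 10.65 with HSF1 shRNA, and 11.69, 11.86 and 11.01 with RPA1 shRNA. Every RPA1 array was above every other array, but array 3 was far below arrays 1 and 2, and the SD of 0.45 was the highest of the 10 genes in that group. E2f1 rose by 0.73 ± 0.17 under RPA1 shRNA (limma adjusted p = 0.011, 1.66-fold). Without RPA1 array 3 the rise was 0.99 ± 0.06 (limma adjusted p = 5.1e-06). The difference of array 3 alone from the control mean was 0.22. The call was lost in an unmoderated fit (adjusted p = 0.055, with 5.1e-06 to 0.055 over the settings), the exception among 19.

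Under HSF1 shRNA, E2f1 differed from control by −0.10 (95% interval −0.49 to 0.29, limma adjusted p = 0.75), with all HSF1 arrays just under the control arrays. Tested directly, it was 0.83 ± 0.17 higher under RPA1 shRNA than under HSF1 shRNA (limma adjusted p = 0.0075, 1.78-fold), and 1.09 higher without array 3 (limma adjusted p = 4.8e-06). Those adjusted p values ran from 4.8e-06 to 0.047 over the 19 settings.

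E2f2, the second activator E2F, was at 8.56, 8.32 and 8.46 in control, 8.61, 8.56 and 8.57 with HSF1 shRNA, and 8.91, 8.98 and 8.59 with RPA1 shRNA (probe set 10509168). RPA1 arrays 1 and 2 were the highest of all, and array 3 fell within the HSF1 range. E2f2 rose by 0.38 ± 0.10 under RPA1 shRNA (limma adjusted p = 0.016, 1.30-fold), and by 0.50 ± 0.07 without array 3 (limma adjusted p = 0.00048). This is the least stable of the 6 RPA1 calls: it was made in 14 of the 19 settings, with adjusted p from 0.00021 to 0.069. It was lost without control array 2 (0.069), without RPA1 array 1 (0.062) and without RPA1 array 2 (0.058), with a fit to only the 6 arrays compared (0.053) and in the unmoderated fit (0.059). Under HSF1 shRNA the difference was 0.13 (95% interval −0.09 to 0.36, limma adjusted p = 0.43). Between the knockdowns it was 0.25 (0.02 to 0.47, limma adjusted p = 0.11), or 0.36 without array 3 (limma adjusted p = 0.0033, with 0.0025 to 0.3 over the settings).

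The windows of E2f2 and Ccnd3 hold the other motif matches. In E2f2 a full E2F motif lies 40 to 47 bases after the start, at chr4:136172313-136172320 of GRCm38.p6. A start inside Ccnd3 has a three-unit heat shock element, the kind of site that HSF1 is known to bind (searched as GAANNTTCNNGAA on both strands), read here on the opposite strand, at positions −185 to −173 from it, chr17:47593282-47593294. Both are from RefSeq, on the plus strand, with the motif in capitals.

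E2f2: atatagTTTGGCGCtaa

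Ccnd3: gcacccTTCCAGAAAGTTCtctcta

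The heat shock element occurs in 198 of the 32851 windows (0.603%) and in 1 of the 9 member windows, and Ccnd3 was not called under HSF1 shRNA.

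**Figure D2:**
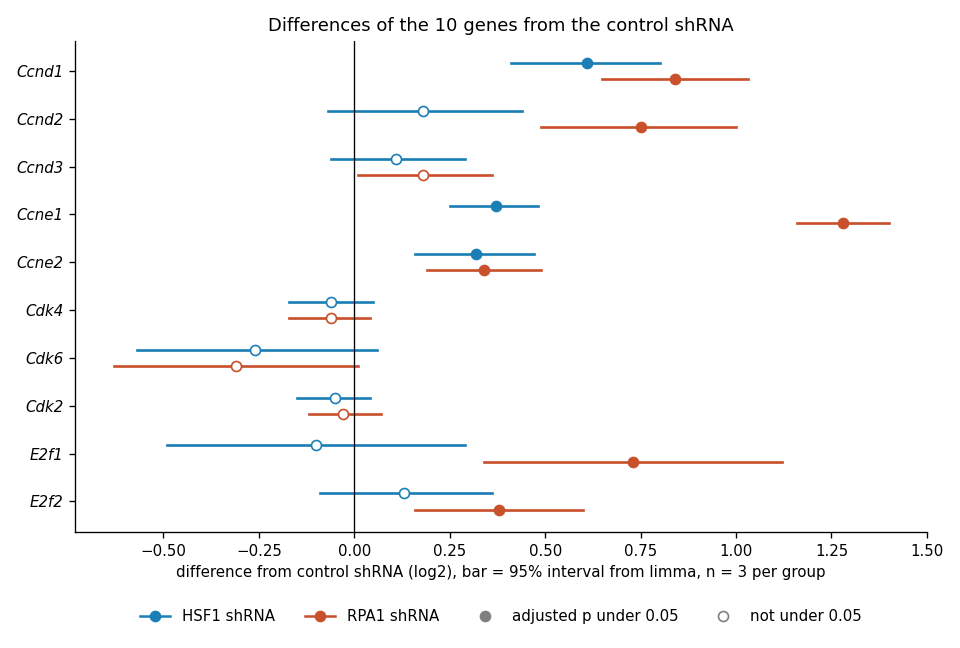
Difference of each of the 10 genes from the control shRNA on the log2 scale, with the 95% interval from limma (3 arrays per group); filled points passed an adjusted p of 0.05. Ccne1 under RPA1 shRNA lies farthest to the right at 1.28, and the intervals of Cdk4 and Cdk2 lie around 0.

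RPA1 array 3 departed from arrays 1 and 2 in different directions for different genes. Its differences from the control mean were larger than those of arrays 1 and 2 for Ccnd1 (1.03 against 0.75), Ccnd2 (1.05 against 0.60) and Ccnd3 (0.37 against 0.09). They were smaller for E2f1 (0.22 against 0.99) and E2f2 (0.14 against 0.50). For Cdk6 the difference was 0.07 on array 3 and −0.50 on arrays 1 and 2. Ccne2 was at 0.43 against 0.30. The D cyclins were thus highest on the array where E2f1 and E2f2 were lowest in the group, a pattern of 1 array that has no test. The median SD of the 10 genes was 0.17 in the RPA1 group, against 0.05 in control and 0.04 with HSF1 shRNA. Over all genes the median SD was 0.09, 0.06 and 0.07 in the same groups.

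**Figure D3:**
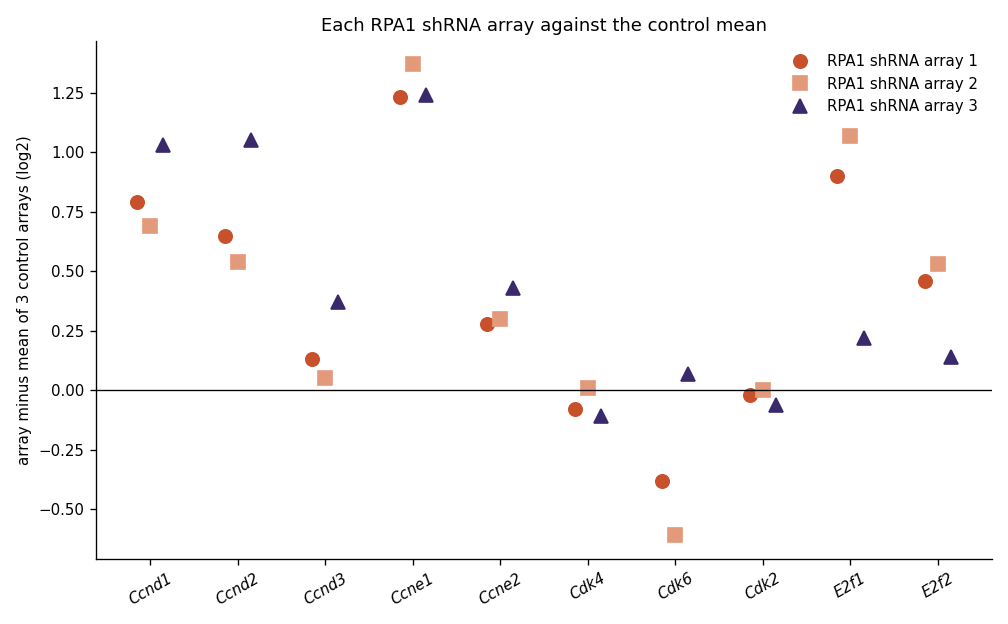
Signal of each RPA1 shRNA array minus the mean of the 3 control arrays (log2), by gene. Array 3 (triangles) is above the other arrays for the 3 D cyclins, Ccne2 and Cdk6, beside arrays 1 and 2 for Ccne1, and below them for E2f1 and E2f2.

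The genes whose pattern over the 9 arrays was most like that of the 2 most changed members are named as a description; all 9 points share the 3-group layout. For Ccne1 they were Dusp3 (r = 0.998), Ppil3 (r = 0.997) and Bmp8a (r = 0.996). Dusp3, a dual-specificity phosphatase, was at 9.44, 9.47 and 9.42 in control, 9.66, 9.66 and 9.72 with HSF1 shRNA, and 10.34, 10.45 and 10.29 with RPA1 shRNA, the same order of groups as Ccne1. For Ccnd1 they were Nme1 (r = 0.998), Timm17a (r = 0.991) and Sgk1 (r = 0.991). Nme1, a nucleoside diphosphate kinase, was at 10.79, 10.88 and 10.70 in control, 11.20, 11.19 and 11.22 with HSF1 shRNA, and 11.33, 11.23 and 11.50 with RPA1 shRNA. Like Ccnd1, it was highest on RPA1 array 3.

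The other genes of the pathway were read from 5 lists with 54 genes tested; Cdkn1a was not analysed here. Of the 54, 9 rose and 11 fell under HSF1 shRNA, and 18 rose and 13 fell under RPA1 shRNA, beside the same shares over all genes as above. The HSF1 split depended on scaling: 5 rose and 12 fell after quantile scaling, 4 and 14 after median scaling, and 5 and 14 after cyclic loess. The calls over all genes also shifted toward fewer higher and more lower under these scalings, with the counts given in the closing section. Between the knockdowns, 15 were higher and 6 lower under RPA1 shRNA.

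CDK inhibitors are the brakes on the kinases above. Under HSF1 shRNA 0 of 6 rose and 2 fell (median −0.17), and under RPA1 shRNA 0 rose and 5 fell (median −0.44). Cdkn1b (p27), an inhibitor of cyclin E with Cdk2, was at 11.97, 11.93 and 11.94 in control, 11.20, 11.27 and 11.09 with HSF1 shRNA, and 11.36, 11.43 and 11.19 with RPA1 shRNA. Both knockdown groups lay well below control and overlapped, and Cdkn1b fell by 0.76 ± 0.07 (limma adjusted p = 0.00024) and by 0.62 ± 0.07 (0.00019). Cdkn1c (p57), of the same inhibitor family, fell by 0.30 ± 0.06 (0.012) and 0.57 ± 0.06 (0.00016).

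Cdkn2b (p15), an inhibitor of Cdk4 and Cdk6, fell under RPA1 shRNA by 0.76 ± 0.20 (limma adjusted p = 0.018), with RPA1 arrays at 9.37, 9.38 and 10.25 against 10.34 to 10.52 in control. Array 3 was again apart: without it the difference was −1.05 (limma adjusted p = 9.2e-06), and over the 19 settings the adjusted p ran from 9.2e-06 to 0.076, and the call was lost without control array 2 or 3 or RPA1 array 1 or 2. Between the knockdowns Cdkn2b was lower under RPA1 shRNA, with a difference of −0.91 ± 0.20 (limma adjusted p = 0.0096). Cdkn2a fell by 0.31 ± 0.07 under RPA1 shRNA (limma adjusted p = 0.01). The RPA1 count of 5 falls was 3 without control array 3.

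In the Rb family and the E2F partners, 2 of 11 rose and 1 fell under HSF1 shRNA (median 0.04), and 7 rose and 2 fell under RPA1 shRNA (median 0.19). Rb1, the retinoblastoma protein itself, was at 10.52, 10.54 and 10.59 in control and at 11.46, 11.50 and 10.94 with RPA1 shRNA, a rise of 0.75 ± 0.12 (limma adjusted p = 0.0015). As with E2f1, array 3 was the lowest of its group, and the Rb1 rise was 0.93 without it. Under HSF1 shRNA Rb1 differed by 0.04 ± 0.12 (limma adjusted p = 0.87).

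E2f8, an atypical E2F that represses E2F targets, rose under RPA1 shRNA by 0.65 ± 0.17 (limma adjusted p = 0.016), and by 0.91 without array 3 (limma adjusted p = 4.3e-06, with 4.3e-06 to 0.072 over the settings). The E2f8 call was lost without control array 1 or 2 or RPA1 array 1 or 2. Tfdp2, a DNA-binding partner of E2Fs, fell by 0.41 ± 0.06 under HSF1 shRNA (limma adjusted p = 0.0019) and by 0.56 ± 0.06 under RPA1 shRNA (0.0001). Rbl2 (p130), the pocket protein of quiescent cells, fell by 0.54 ± 0.07 under RPA1 shRNA (limma adjusted p = 0.00042). E2f4 and E2f7 rose under HSF1 shRNA by 0.30 ± 0.07 (limma adjusted p = 0.018) and 0.18 ± 0.05 (0.031). Those 2 HSF1 rises came to 0 when control array 1, 2 or 3 or HSF1 array 1 or 3 was left out, 1 without HSF1 array 2 and 4 without RPA1 array 3. The E2f7 call was also lost after median scaling and cyclic loess (limma adjusted p from 0.0097 to 0.1 over the settings). The 7 RPA1 rises were 4 without control array 3. Between the knockdowns E2f3, the third activator E2F, was higher under RPA1 shRNA by 0.49 ± 0.06 (limma adjusted p = 0.00078), as were Rb1 by 0.71 (0.0033) and E2f8 by 0.70 (0.015). Rbl2 was lower, with a difference of −0.43 ± 0.07 (limma adjusted p = 0.0025).

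Among 11 genes that activate the kinases or turn over the cyclins and inhibitors, 4 rose and 0 fell under HSF1 shRNA (median 0.11), and 3 rose and 2 fell under RPA1 shRNA (median 0.03). Cdc25a, the phosphatase that activates Cdk2, rose by 0.34 ± 0.06 (limma adjusted p = 0.0058) and 0.58 ± 0.06 (0.00012). Skp2, which marks p27 for degradation, rose by 0.25 ± 0.07 (limma adjusted p = 0.032) and 0.29 ± 0.07 (0.011). Fbxw7, which marks cyclin E for degradation, rose by 0.23 ± 0.06 (limma adjusted p = 0.033) and 0.50 ± 0.06 (0.00036). Mnat1, of the CDK-activating kinase, fell by 0.74 ± 0.13 under RPA1 shRNA (limma adjusted p = 0.0022). Cks1b, the cofactor of Skp2, was the other gene called under HSF1 shRNA (0.16 ± 0.05). The HSF1 calls of Skp2, Fbxw7 and Cks1b were lost after quantile scaling, median scaling and cyclic loess, with limma adjusted p up to 0.11, 0.12 and 0.14 over all settings. When any control or HSF1 array was left out, the count of 4 HSF1 rises became 1. The 2 RPA1 falls were 1 without control array 3.

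Mitogen-responsive transcription factors act upstream of the D cyclins; 3 of 7 rose and 2 fell under HSF1 shRNA (median 0.14), and 5 rose and 1 fell under RPA1 shRNA (median 0.52). Fosl1 (Fra-1), an AP-1 subunit, was at 9.61, 9.63 and 9.67 in control, 10.80, 10.80 and 10.93 with HSF1 shRNA, and 11.48, 11.46 and 11.58 with RPA1 shRNA. The 3 groups did not overlap, in the same order as for Ccnd1 and Ccne1. For Ccnd1, the step between the knockdowns did not pass over all genes. Fosl1 rose by 1.21 ± 0.06 (limma adjusted p = 1.6e-05) and 1.87 ± 0.06 (3.8e-07). Myc rose by 0.35 ± 0.07 (limma adjusted p = 0.01) and 0.84 ± 0.07 (3.6e-05).

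Mycn, the Myc relative, went the other way and fell by 0.62 ± 0.09 (limma adjusted p = 0.0021) and 0.66 ± 0.09 (0.0005). Fos rose by 0.64 ± 0.07 under RPA1 shRNA (limma adjusted p = 0.00012). Egr1, an immediate early gene, fell by 0.36 ± 0.11 under HSF1 shRNA (limma adjusted p = 0.046). The 2 HSF1 falls were 1 without any control array, any HSF1 array or RPA1 array 1. Between the knockdowns 6 of the 7 were higher under RPA1 shRNA, Fosl1 by 0.67 (limma adjusted p = 0.00012) and Jun, another AP-1 subunit, by 0.57 (0.00019).

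Most of the S phase genes that E2Fs are known to switch on did not rise with the cyclins. Under HSF1 shRNA 0 of 19 rose and 6 fell (median −0.09), and under RPA1 shRNA 3 rose and 3 fell (median −0.11). The licensing factor Cdt1 fell by 0.38 ± 0.06 (limma adjusted p = 0.0043), thymidine kinase Tk1 by 0.38 ± 0.07 (0.0075), the helicase subunit Mcm7 by 0.35 ± 0.07 (0.01) and the sliding clamp Pcna by 0.28 ± 0.05 (0.0054) under HSF1 shRNA. Under RPA1 shRNA Rrm2, a ribonucleotide reductase subunit, rose by 0.34 ± 0.06 (limma adjusted p = 0.003), Orc1, of the origin recognition complex, by 0.33 ± 0.07 (0.0041) and Mybl2 by 0.30 ± 0.05 (0.0026). The helicase subunit Mcm5 fell by 0.24 ± 0.06 (limma adjusted p = 0.013). The 6 HSF1 falls were 4 without control array 1, 2 or 3 or HSF1 array 2 or 3, and 8 without RPA1 array 3. The 3 RPA1 falls were 1, 0 and 1 without control array 1, 2 and 3. Between the knockdowns 4 were higher and 1 lower under RPA1 shRNA. Without RPA1 array 3 these were 8 and 2, and 2 were higher without HSF1 array 2, HSF1 array 3 or RPA1 array 2.

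**Figure D4:**
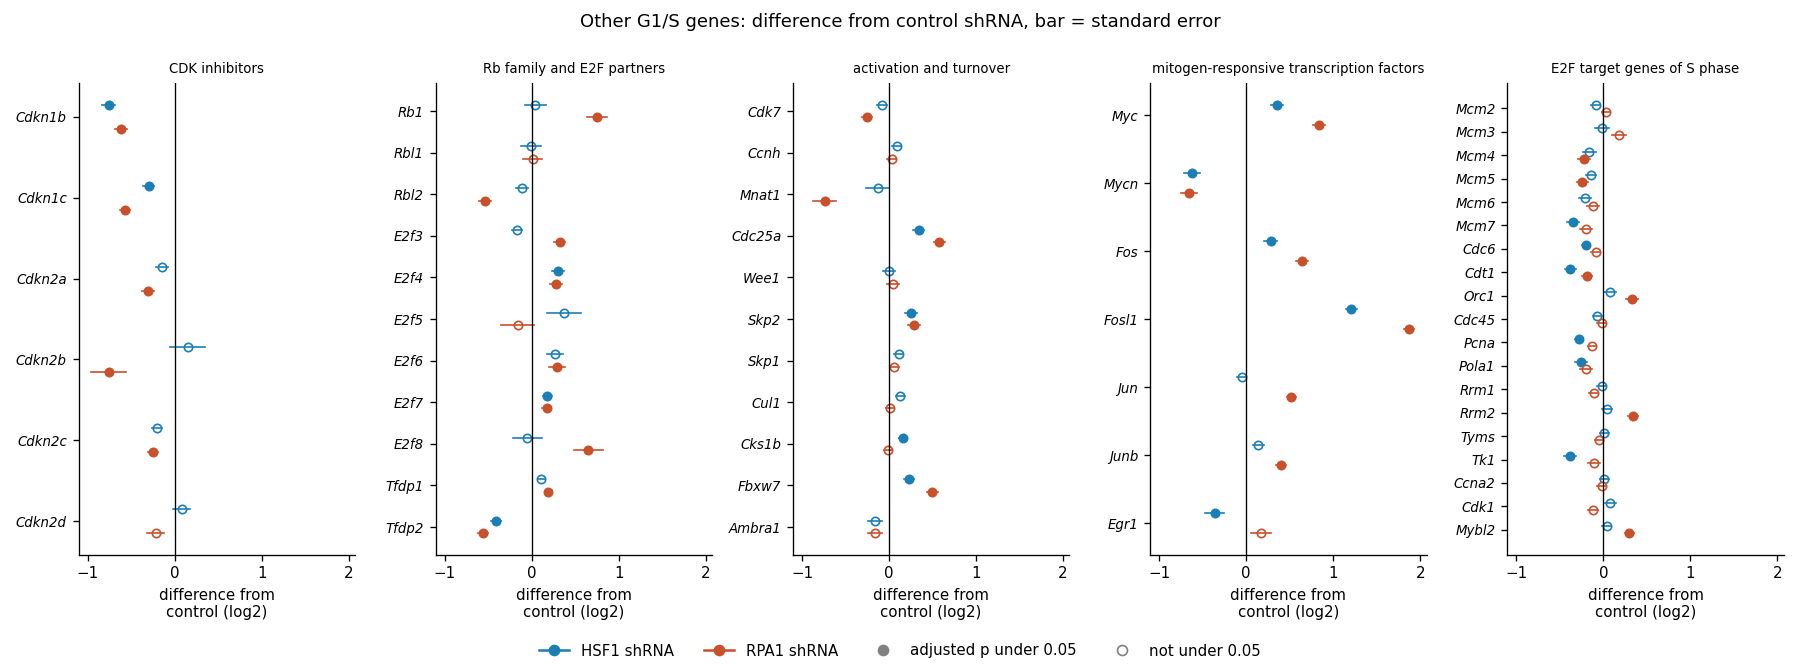
Difference from control shRNA (log2, bar = standard error from limma, 3 arrays per group) of the 54 other G1/S genes in 5 lists, with filled points for an adjusted p under 0.05. The RPA1 points of the CDK inhibitors all lie left of 0, Fosl1 lies farthest right at 1.21 and 1.87, and most S phase genes lie near 0.

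Fibroblast markers moved alongside these genes. Of 10, 1 rose and 5 fell under HSF1 shRNA and 0 rose and 7 fell under RPA1 shRNA. Over all genes, 9.89% were called higher and 6.21% lower under HSF1 shRNA, and 15.4% and 14.7% under RPA1 shRNA. The mean log2 signal of the 10 markers per array ran from 11.07 to 11.13 in control, 10.91 to 11.01 with HSF1 shRNA and 10.52 to 10.69 with RPA1 shRNA. The 5 HSF1 falls were 1, 2 and 3 without control array 1, 2 and 3, and 3, 3 and 2 without HSF1 array 1, 2 and 3. Pdgfra, a mitogen receptor of fibroblasts, fell by 0.90 ± 0.07 (limma adjusted p = 0.00011) and fell by 1.70 ± 0.07 (1.5e-06), while Vim differed by 0.08 and 0.10 without passing. S100a4 was the marker that rose under HSF1 shRNA, by 1.16 ± 0.18 (limma adjusted p = 0.0027). Under RPA1 shRNA it differed by 0.45 (limma adjusted p = 0.09), with arrays 1, 2 and 3 at 10.51, 10.30 and 11.16. Of the blood markers, Ptprc was at 5.90 to 6.05 in control and 6.04 to 6.18 with RPA1 shRNA, and 1 of 5 rose under HSF1 shRNA and 2 under RPA1 shRNA, Cd68 by 2.06 among them. Of 6 epithelial, 4 endothelial, 4 muscle and 4 neural markers, 1, 1, 1 and 3 rose and 0 fell in each comparison with control. These small counts stand beside the same shares over all genes. The signals give no level for an absent gene, so no marker can be placed at 0. The part of these shifts in the results for the cyclins and E2Fs was not tested.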

How the data were processed

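Total RNA of 9 samples, 3 per group, was hybridised to Affymetrix Mouse Gene 1.0 ST arrays. The deposited log2 signals were made by the authors with RMA in Partek 6.5, per the submitters' processing notes; the log2 scale was inferred from the values, and the genome build is not given in the sources used here. RMA sets all arrays to a like distribution, so a shift shared by most genes would not be seen. Groups came from the sample labels.

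Of 35557 probe sets, the 21789 with a single gene symbol in the array's annotation table were used. The highest mean stood for each of the 999 genes with several, which left 19938 genes, with no filter on dim genes. RefSeq changed 0 symbols. R 4.3.3 and limma 3.58.1 fitted 1 mean per group to all 9 arrays, with empirical Bayes moderation (6 residual and 3.51 prior degrees of freedom). Calls used a Benjamini-Hochberg adjusted p under 0.05. With 3 against 3, the smallest exact p is 0.1, so calls come from the linear model's variance estimate; the alternatives include a fit that pools no variance over genes. The fit was tested on simulated data.

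The members and gene lists were chosen with earlier results of these data known. All 10 members are named, and in each list and comparison up to 4 called genes with the largest difference, plus Rb1 in any case; other genes were named after their values were seen. The likeness of pattern is Pearson's r to the 2 members with the smallest F-test p. Promoter windows are 250 bases before and 50 after a RefSeq start (GRCm38.p6). Alternatives were 3 scalings, each probe set as its own unit, brighter genes alone, 6 arrays alone, array weights, 2 variance models, a replicate block and each array left out.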

Additional observations from a re-analysis of the deposited data

How the results depend on the processing

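Over 19 settings, 536 of 570 member differences kept their direction and their side of the threshold, 15 passed it newly, 7 no longer passed and 12 changed sign. The sign changes were all in RPA1 against HSF1 shRNA, among differences that had not passed: Cdk4 was 0.01 after quantile scaling, 0.04 after median scaling and 0.02 after cyclic loess, and Ccne2 was −0.06 with array weights. Leaving out 1 array, Cdk4 ran from −0.04 to 0.02, Ccne2 from −0.02 to 0.09, Cdk6 from −0.24 to 0.10 and Ccnd3 from −0.02 to 0.13. In that comparison the members called were 5 with array weights and 3 to 5 with 1 array left out, and the pathway genes called were 35 with array weights against 21. Under HSF1 shRNA the pathway genes called were 11 to 26 with 1 array left out, against 20. The cause was not tested. Over all genes, HSF1 shRNA gave 1971 higher and 1239 lower calls, and 1789 and 1649 after quantile scaling, 1593 and 1717 after median scaling and 1691 and 1734 after cyclic loess. RPA1 against HSF1 shRNA gave 1935 and 2928, and 2520 and 2669, 2672 and 2426, and 2503 and 2645 in the same order. With array weights 5313, 9065 and 7926 genes were called in the 3 comparisons. Arrays of the same number in different groups did not deviate together: the correlations of their deviations over 9 pairs ran from −0.159 to 0.093, and 0 of 9 arrays correlated best with their own number. With the replicate block, the members called were 3, 6 and 3, as without it, and the pathway genes called 15, 28 and 21. Precision is limited by having 3 arrays in each group.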
